A study of Mus musculus with 2 samples.

Results

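The genes described here are 10 nuclear receptors: the thyroid hormone receptor Thra, the retinoic acid receptors Rara and Rarg, the retinoid X receptors Rxra and Rxrb, the fatty acid sensors Ppard and Pparg, the oxysterol receptor Nr1h2 (LXR beta), and the orphan receptors Nr2f1 and Nr2f2 (COUP-TFI and COUP-TFII). They were chosen by name with no threshold on any measured value, though earlier results of these data were known. Their counts were read by symbol from a table of 33757 features. The cells were NIH3T3-Rev-VNP1-H2B-iRFP fibroblasts, a derivative of the mouse embryonic fibroblast line NIH3T3 with a Venus reporter of Nr1d1 and the near-infrared protein iRFP fused to histone H2B. All cells carried both reporters and were grown in serum-containing medium to 95% confluency, about 5 days after seeding, with no synchronization; the labels name no added receptor ligand. Single cells were sorted into 2 plates of 384 wells over 4 gates of Venus brightness, and 762 of 768 wells passed a filter on genes, depth and mitochondrial share. By the image names recorded for the cells, plate 1 held only the High iRFP sort and plate 2 only the Low iRFP sort. The labels describe 2 iRFP bins per plate instead. Median recorded iRFP was 352729 on plate 1 and 152996 on plate 2. By this assignment plate and iRFP sort cannot be told apart. Each gate filled the same 6 columns of wells on both plates, so gate and plate position cannot be told apart either. Whether the line is 1 clone is not given in the sources used here.

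Nuclear receptors are transcription factors whose activity is set by small lipophilic ligands, among them thyroid hormone, retinoic acid, fatty acids and oxysterols. Thyroid hormone, retinoic acid, PPAR and LXR receptors bind DNA as heterodimers with a retinoid X receptor, commonly at repeats of the half-site AGGTCA, and exchange corepressors for coactivators when ligand binds. The reporter gene of this line, Nr1d1 (REV-ERB alpha), is itself a nuclear receptor and a repressor in the circadian clock, and its expression rises and falls with the time of day. Thra lies next to Nr1d1 on the opposite strand, with the ends of both genes overlapping, which makes it a check on reads assigned to the wrong gene.

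Raw counts of the passing cells were summed for each plate and gate, giving 8 sums of 76042157 to 86612194 counts. Levels are given as CPM, a gene's counts per 1000000 counts of a sum, and the 2 plates are the only replicates; the labels do not call them separate cultures, so p-values measure the spread between these sums, which may be technical. Fibroblast identity was checked against 12 markers: 11 were above 1 CPM on each plate, led by Col1a1 (8556 and 8347 CPM), with Lum near 0 (0.32 and 0.16 CPM). Summed marker levels of other cell types were 4.32 and 5.61 CPM for epithelial cells, 8.08 and 8.95 for leukocytes, 0.60 and 0.58 for endothelium and 2.94 and 3.09 for skeletal muscle. These sums cover the markers in the table: 4 of 5, 5 of 5, 3 of 4 and 3 of 5 in that order. The epithelial panel did not include the basal keratin Krt14, which was at 36.6 and 30.2 CPM. Of 6 adipocyte markers in the table only Lpl was above 1 CPM (186 and 201 CPM), while Adipoq and Fabp4 were at or below 0.02 CPM.

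Rara was the only receptor of the 9 tested with a called trend along the Venus gates. It fell by 0.16 on the log2 scale per gate step (SE 0.02, adjusted p = 0.0047, edgeR's quasi-likelihood test with the plate as a block and Benjamini-Hochberg adjustment over 18430 genes), a fitted ratio of 0.721 between the brightest and the dimmest gate. The remaining 8 tested receptors did not pass the threshold in this fit, though Rarg and Nr1h2 did under some other settings given with them, and Pparg was below the filter on low counts. So 1 of 9 tested receptors (11.1%) was called, against 15.4% of all genes tested (2843 of 18430); in the downward direction it was 1 of 9 against 8.64% of all genes. The test for a difference of any shape among the gates also called Rara alone (adjusted p = 0.0222), against 8.37% of all genes. The median trend of the 9 receptors was 0.02 log2 per gate, beside -0.00424 for all genes tested. Their median absolute trend was 0.05, beside 0.08 for all genes tested.

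**Figure D1:**
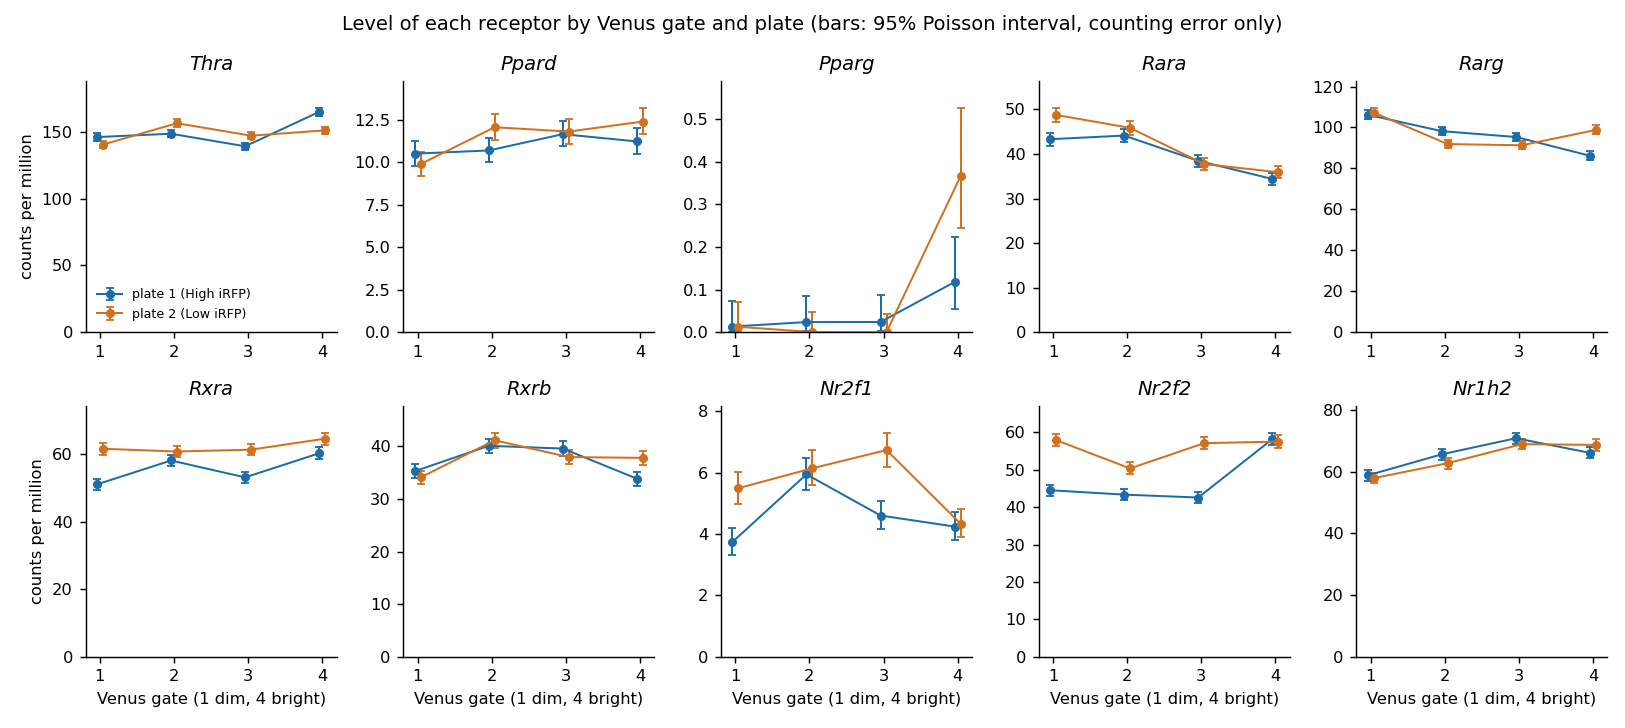
Level of each of the 10 receptors in CPM (vertical axes from 0) by Venus gate from 1 (dim) to 4 (bright), one line per plate; bars are 95% Poisson intervals and cover counting error only. Rara steps down from 43.3 to 34.4 CPM on plate 1 and from 48.8 to 35.9 CPM on plate 2, while Thra stays between 139 and 165 CPM.

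**Figure D2:**
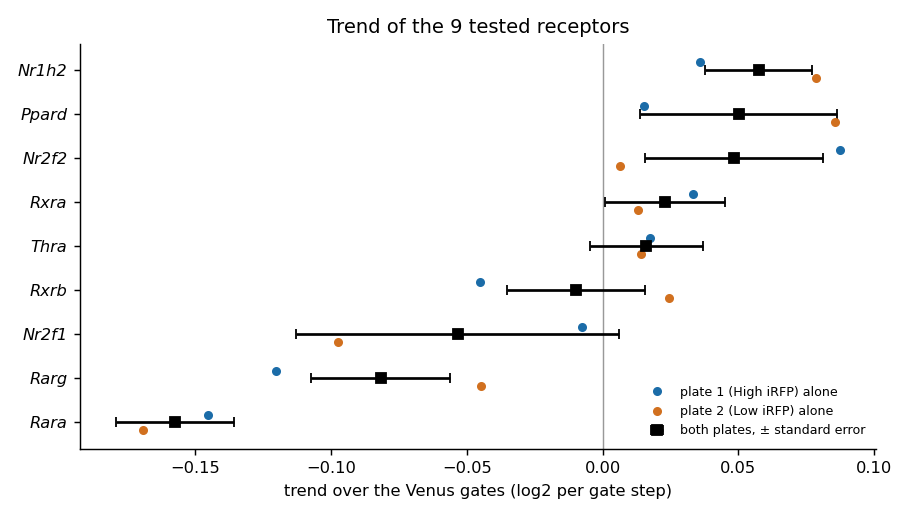
Trend over the Venus gates in log2 per gate step (horizontal axis) for the 9 tested receptors; squares are the fit over both plates with its standard error, and circles are each plate alone. Rara stands at -0.16, and only Rxrb has its 2 plates on opposite sides of 0.

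Rara encodes retinoic acid receptor alpha, which in most tissues is the broadly expressed member of its family. From the dimmest to the brightest gate its level was 43.3, 44.1, 38.5 and 34.4 CPM on plate 1, and 48.8, 45.9, 37.7 and 35.9 CPM on plate 2. Both plates were high in the 2 dim gates and low in the 2 bright gates, with no overlap between the 4 dim and the 4 bright sums. The gate means were 46.05 ± 3.86 CPM (SD, n = 2 plates) in the dimmest gate and 35.1 ± 1.07 CPM in the brightest. The plates alone gave trends of -0.15 and -0.17 log2 per gate, and the difference between them was -0.02 ± 0.05 (SE; adjusted p = 0.989, edgeR interaction test). With the brightest sum of plate 1 left out, the trend was -0.15 and its adjusted p 0.0559 (edgeR; range over the 8 sums left out in turn 0.00848 to 0.0559). Without the brightest gate on both plates it was -0.14 with an adjusted p of 0.0939. Cell by cell, Rara and recorded Venus brightness had Spearman correlations of -0.230 (plate 1, 383 cells) and -0.221 (plate 2, 379 cells); cells of a plate share their preparation. Ranked within gates, the values were -0.105 and -0.005. With the reporter's mRNA, the YFP feature, Rara's within-gate correlations had the opposite sign to its gate trend, at 0.099 and 0.061, and with Nr1d1 they were 0.091 and 0.069.

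The start of Rara is shown because it is the one receptor called. The sequence below is the 250 bases before its second start site in RefSeq (GRCm38.p6, plus strand, chr11:98937468-98937717), 5′ to 3′, with an E-box in capitals, the motif CACGTG bound by the clock activators CLOCK and BMAL1.
Rara, start site 2: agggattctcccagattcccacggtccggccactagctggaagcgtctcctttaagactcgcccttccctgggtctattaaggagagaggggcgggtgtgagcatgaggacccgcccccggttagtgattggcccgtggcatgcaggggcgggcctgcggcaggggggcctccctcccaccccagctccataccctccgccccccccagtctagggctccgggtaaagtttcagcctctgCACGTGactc
The motif begins at position -10 from that start, and the same bases lie at position 12 after the first start site of the gene. Windows of 300 bases, 250 before to 50 after a start, were on hand for 9 of the 10 receptors, 18 windows in all. Searched on both strands, CACGTG occurred in these 2 overlapping Rara windows and in no other, against 7.15% of 32851 mouse windows. The half-site AGGTCA has last letters that can overlap CACGTG. It occurred in the windows of Pparg starts 1 and 2, Rara start 4, Rarg start 1 and Rxra start 2. Among all mouse windows it was in 16.3%, and these belonged to 4900 of 27025 genes. TAGGTCA, the core that REV-ERB and ROR proteins bind and which contains the half-site, occurred in none of the 18, against 2.61% of all. A match of letters is a description and not a measured binding site, and the windows come from another genome build than the counts.

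Rarg, retinoic acid receptor gamma, is prominent in skin and skeletal precursors. Its level from dim to bright was 106, 98.2, 95.4 and 86.2 CPM on plate 1 and 107, 91.9, 91.3 and 98.8 CPM on plate 2. The dimmest gate was the highest on both plates, and the brightest gate was the lowest on plate 1 only. The trend of -0.08 ± 0.03 log2 per gate (SE) did not pass the threshold (adjusted p = 0.0704, edgeR), with -0.12 on plate 1 and -0.04 on plate 2. Without the brightest sum of plate 2 it was -0.12 with an adjusted p of 0.0369; DESeq2 gave 0.0171. With no filter on low counts edgeR gave an adjusted p of 0.0422. The calls for Rarg therefore differ with the tool, with the filter and with 1 sum left out.

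Ranked within gates, Rarg correlated most with Krt14, a basal keratin (Spearman 0.539 and 0.502 on plates 1 and 2), Klf4, a zinc finger transcription factor of barrier epithelia and of pluripotency (0.539 and 0.481), and Ppp1r14b, a phosphatase inhibitor subunit (0.477 and 0.443). These were the 3 highest of 10465 features with a read in at least 50% of cells of each plate. Within single gates the correlation with Krt14 ranged from 0.409 to 0.643 over the 8 sets of cells. Krt14 had reads in 74.2% and 71.2% of cells, at 36.6 and 30.2 CPM, and none of the 3 genes had a called trend over the gates (adjusted p 0.308, 0.409 and 0.430, edgeR). Rarg was also negatively correlated with the mitochondrial share of a cell's counts, at -0.331 and -0.220 within gates, lower than those of 97.2% of the features compared. Krt14 (-0.306 and -0.225) and Klf4 (-0.324 and -0.199) had like values, and the part of the mitochondrial share in these relations was not tested. Among retinoid genes, Dhrs3, a reductase that returns retinaldehyde to retinol, had the highest correlation with Rarg, at 0.285 and 0.299.

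Rara had another set of near neighbours: Ptn, which encodes the growth factor pleiotrophin (0.309 and 0.384), Fstl1, a secreted glycoprotein (0.345 and 0.320), and Il11ra1, a receptor for interleukin 11 (0.284 and 0.321). Of these, Ptn and Fstl1 also fell along the gates, by 0.22 and 0.30 on the log2 scale per gate (adjusted p 0.00217 and 0.000734, edgeR), and Il11ra1 was at -0.09 (adjusted p = 0.124). Ranking within gates removes the difference between gates, but not the spread of Venus brightness among the cells of a gate. Mitochondrial share was positively correlated with Ptn (0.257 and 0.128), Fstl1 (0.195 and 0.211) and Il11ra1 (0.260 and 0.312), and with Rara at 0.140 and 0.055; its part in these relations was not tested. Among 8 retinoid genes, 2 had a positive mean correlation with Rara: Cyp26b1 (0.077 and 0.134) and Dhrs3 (0.122 and 0.083). The lowest was Rdh10, at -0.130 and -0.184. Cyp26b1 and Rdh10 were named after their values were seen.

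Rxra and Rxrb encode the shared partners of these receptors. Rxra was at 51.1, 58.1, 53.1 and 60.3 CPM on plate 1 and 61.6, 60.8, 61.3 and 64.6 CPM on plate 2, with a trend of 0.02 ± 0.02 log2 per gate (adjusted p = 0.552, edgeR). Its plate 1 values lay below those of plate 2 in every gate, and the plate 1 to plate 2 ratio was 0.897 (95% exact interval 0.879 to 0.915, counting error only). Rxrb was at 35.3, 40.1, 39.6 and 33.8 CPM on plate 1 and 34.1, 41.1, 38.0 and 37.8 CPM on plate 2. The 2 middle gates were above the dimmest gate on both plates, but the test for any shape did not call it (adjusted p = 0.197), and its linear trend was -0.01 ± 0.03 (adjusted p = 0.852). The direction of that trend differed between plates and between scalings: it was 0.007 with library totals alone.

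Thra encodes thyroid hormone receptor alpha, the main thyroid hormone receptor of many mesenchymal tissues. It had reads in every passing cell, at 146, 149, 139 and 165 CPM from dim to bright on plate 1 and 140, 156, 147 and 151 CPM on plate 2. The brightest gate stood above the dimmest by 18.9 and 10.7 CPM on the 2 plates, and the second gate of plate 2 overlapped with it. The fitted trend was 0.02 ± 0.02 log2 per gate (adjusted p = 0.672, edgeR). Over the same gates Nr1d1 went from 60.9 to 1266 CPM on plate 1 and from 68.7 to 1169 CPM on plate 2, by design of the sort, with a trend of 1.38 ± 0.02. The difference in Thra came to 1.57 and 0.97 CPM for each 100 CPM of Nr1d1. In the GENCODE annotation (release M21, build GRCm38) exons of the 2 genes share 263 bases, 5.70% of Thra's 4614 exon bases, on opposite strands. Whether the counting used strand is not given in the sources used here, and reads of the shared bases cannot be told apart without it. Nr2f1 and Nr2f2 also overlap antisense transcripts, over 2.42% and 7.46% of their exon bases.

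Within gates, however, Thra followed the reporter's RNA more closely than almost any other gene. The correlation of Thra with the YFP feature, the Venus coding sequence in the count table, was 0.324 on plate 1 and 0.352 on plate 2, and with Nr1d1 it was 0.290 and 0.321. Of 10464 features compared, only 2 had a higher mean correlation with YFP: Nr1d1 itself (0.923 and 0.907) and a feature without a symbol in the reference. Next came Hsbp1, a binding protein of heat shock factor (0.244 and 0.237), and Cox4i1, a subunit of cytochrome c oxidase (0.292 and 0.183). At the other end stood Cry1, a clock repressor, with -0.259 and -0.342. These genes were named after their values were seen. The middle 90% of features, each taken as its mean over plates, lay between -0.098 and 0.074. On single plates the other 8 receptors compared ranged from -0.087 to 0.099. By mean over plates, Rara (0.080) and Rxra (0.077) also lay just above that band, and Thra was at 0.338. With Venus fluorescence, the protein by which cells were sorted, Thra had within-gate correlations of -0.027 and -0.056.

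**Figure D3:**
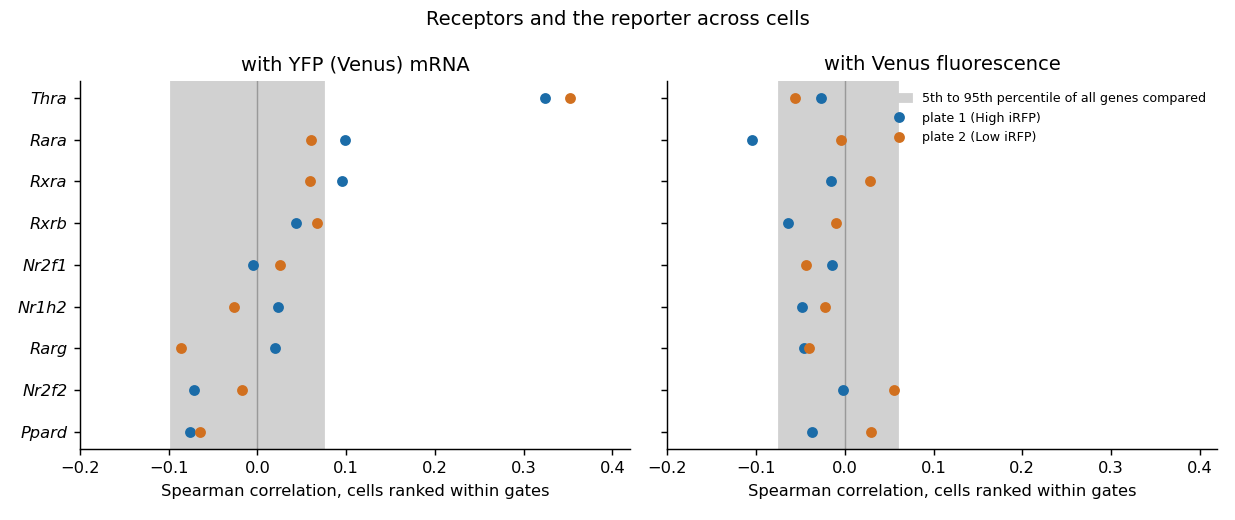
Spearman correlation across cells, ranked within gates, of 9 receptors (vertical axis) with YFP mRNA (left) and with Venus fluorescence (right); circles are the 2 plates, and the grey band spans the 5th to the 95th percentile of all features compared, each taken as its mean over plates. Thra lies at 0.324 and 0.352 with YFP mRNA, outside the band, and inside it with fluorescence. The plate means of Rara (0.080) and Rxra (0.077) with YFP mRNA are also just above the band.

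The correlation was above 0 in each of the 8 sets of cells and ranged widely among them; neither it nor the slopes were tested for a difference between gates. Thra and Nr1d1 correlated at 0.264, 0.129, 0.360 and 0.407 from dim to bright on plate 1 and at 0.557, 0.209, 0.273 and 0.243 on plate 2. The highest value was in the dimmest gate of plate 2, and the second gate was the lowest on each plate. A least-squares line over the cells gave 29.3 and 51.0 CPM of Thra for 100 CPM of Nr1d1 in the dimmest gate, where the median cell had 47.9 and 60.6 CPM of Nr1d1. In the brightest gate, where the median cell had 1145 and 1118 CPM of Nr1d1, the line gave 4.80 and 1.46. Such a slope falls as the spread of Nr1d1 over cells widens. The SD of Nr1d1 over cells was 45.2 and 52.9 CPM in the dimmest gate, and 649 and 479 CPM in the brightest. The SD of Thra was 51.3 and 54.4 CPM in the dimmest gate, and 74.0 and 48.0 CPM in the brightest. The lower slope is therefore not read as a weaker relation. The 8 slopes ranged from 1.46 to 51.0, beside the 1.57 and 0.97 between gate ends. Nearest to Thra across cells were Hsbp1 (0.323 and 0.429), Map1lc3b, an autophagy protein that coats autophagosomes (0.289 and 0.391), and YFP. Hsbp1 and Map1lc3b rose along the gates by 0.18 and 0.14 log2 per gate (adjusted p 0.00159 and 0.00167, edgeR), where Thra had no called trend.

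**Figure D4:**
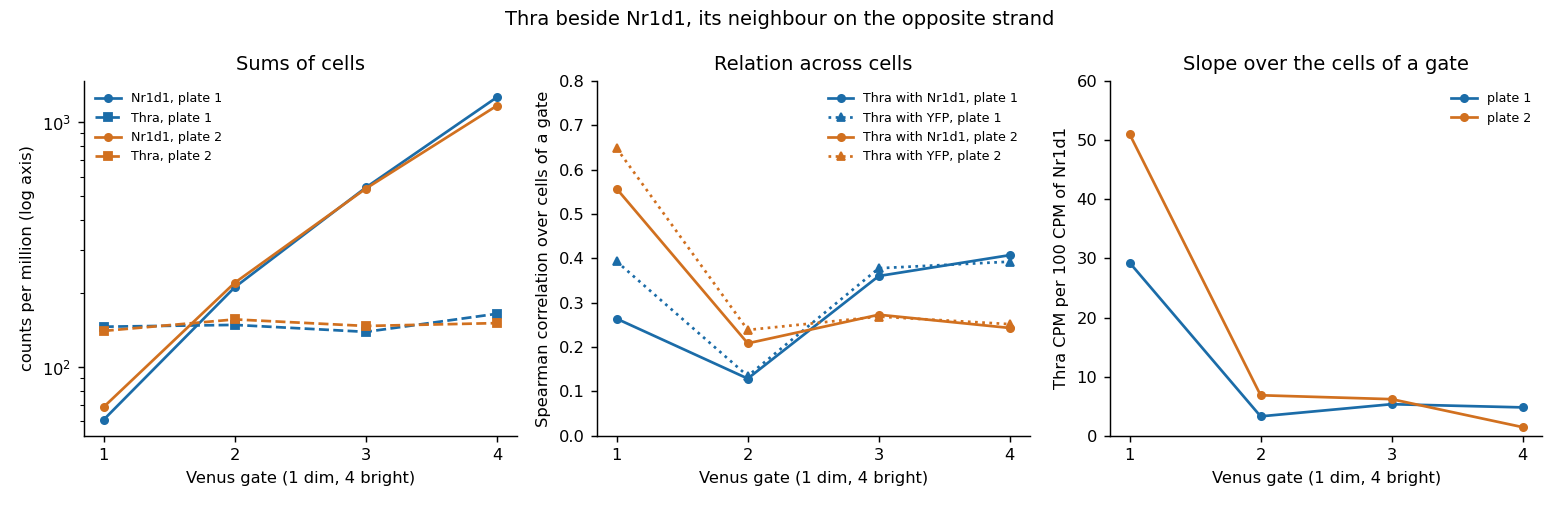
Thra beside Nr1d1 by Venus gate: level of the sums in CPM on a log axis (left), Spearman correlation over the cells of each gate with Nr1d1 (circles) and YFP (triangles) (middle), and least-squares slope of Thra on Nr1d1 in CPM per 100 CPM (right), one color per plate. Nr1d1 climbs to 1266 and 1169 CPM while Thra stays between 139 and 165 CPM. The slope is 29.3 and 51.0 in the dimmest gate and 4.80 and 1.46 in the brightest. It falls as Nr1d1 spreads more over cells, and that spread is far wider in the brightest gate.

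Nr1h2, the broadly expressed of the 2 oxysterol receptors, was at 58.8, 65.7, 70.9 and 66.1 CPM on plate 1 and 57.9, 62.8, 69.0 and 68.7 CPM on plate 2. The dimmest gate was the lowest on both plates and did not overlap with the others. Its trend of 0.06 ± 0.02 log2 per gate did not pass the threshold (adjusted p = 0.0945, edgeR), while 3 other settings brought it under 0.05: library totals without TMM (0.0389), limma (0.0397) and DESeq2 (0.0484). Its relative Nr1h3 (LXR alpha) was at 0.26 and 0.28 CPM, with reads in 5.48% and 6.86% of cells.

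Ppard, the broadly expressed PPAR, was at 10.5, 10.7, 11.7 and 11.2 CPM on plate 1 and 9.91, 12.1, 11.8 and 12.4 CPM on plate 2. The dimmest gate was again the lowest on each plate, and the trend was 0.05 ± 0.04 log2 per gate (adjusted p = 0.414, edgeR). Reads of Ppard were found in 94.3% and 94.7% of cells, and in 87.2% and 87.3% after each cell was thinned to 300000 counts. Pparg, the regulator of fat cell formation, was close to absent: 14 reads in 7 of 383 cells on plate 1 and 30 reads in 3 of 379 cells on plate 2. That is 1.83% of cells (95% exact interval 0.738% to 3.73%) and 0.792% (0.164% to 2.30%). The brightest gate of plate 2 held 29 of its 30 reads, in 2 cells, so no level per gate is read from it. In the same cells the adipocyte markers Adipoq and Fabp4 were near 0, as given above.

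Nr2f1 and Nr2f2 are orphan receptors with roles in development. Nr2f1 was the lowest of the 9 tested receptors, at 3.73, 5.94, 4.60 and 4.24 CPM on plate 1 and 5.49, 6.14, 6.73 and 4.33 CPM on plate 2, with a trend of -0.05 ± 0.06 (adjusted p = 0.617, edgeR). Its brightest gate lay below its 2 middle gates on each plate. Reads were found in 66.8% and 67.0% of cells, or 52.7% and 52.8% after thinning. Nr2f2 was at 44.6, 43.4, 42.6 and 58.2 CPM on plate 1 and 58.0, 50.4, 57.1 and 57.6 CPM on plate 2. On plate 1 the brightest gate stood above the other 3, and on plate 2 the second gate stood below the other 3. Its trend was 0.05 ± 0.03 (adjusted p = 0.382), with 0.09 on plate 1 and 0.01 on plate 2.

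Of the 9 receptors other than Pparg, the COUP-TF genes had the plate ratios farthest from 1. The plate 1 to plate 2 ratio was 0.819 for Nr2f1 (95% exact interval 0.764 to 0.877), 0.842 for Nr2f2 (0.823 to 0.860) and 0.897 for Rxra, as given above. Thra (1.01), Nr1h2 (1.01), Rarg (0.992) and Rxrb (0.989) were within counting error of 1, Ppard (0.955, interval 0.912 to 1.00) was at its edge, and Rara was at 0.957 (0.934 to 0.980). Pparg was at 0.468 (0.229 to 0.910), from 14 and 30 reads in 7 and 3 cells. With 1 plate per iRFP sort there is no test of these ratios. The median cell had 9.27% (plate 1) and 7.42% (plate 2) mitochondrial counts, and their part in the ratios was not tested.

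Levels between receptors are compared per kilobase of exon, with lengths from the same annotation. Thra was the highest of the 10, at 32.3 ± 0.12 CPM per kilobase (SD, n = 2 plates), followed by Rarg at 22.7 ± 0.12, Nr1h2 at 19.4 ± 0.17 and Rxra at 10.8 ± 0.83. Rxrb at 9.44 ± 0.07 and Rara at 9.40 ± 0.29 did not differ beyond their spread. Nr2f2 stood at 5.96 ± 0.73, Ppard at 1.47 and 1.54 on the 2 plates, Nr2f1 at 1.02 ± 0.14 and Pparg at 0.02 ± 0.01. Of 39 receptors of the superfamily in the table, 22 had a read in at least 50% of cells of each plate, among them 9 of the 10 described here. Only Nr1d1, at 165 CPM per kilobase, stood above Thra. Thrb, the second thyroid hormone receptor, was at 0.41 and Rarb, the third retinoic acid receptor, at 0.002 CPM per kilobase.

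**Figure D5:**
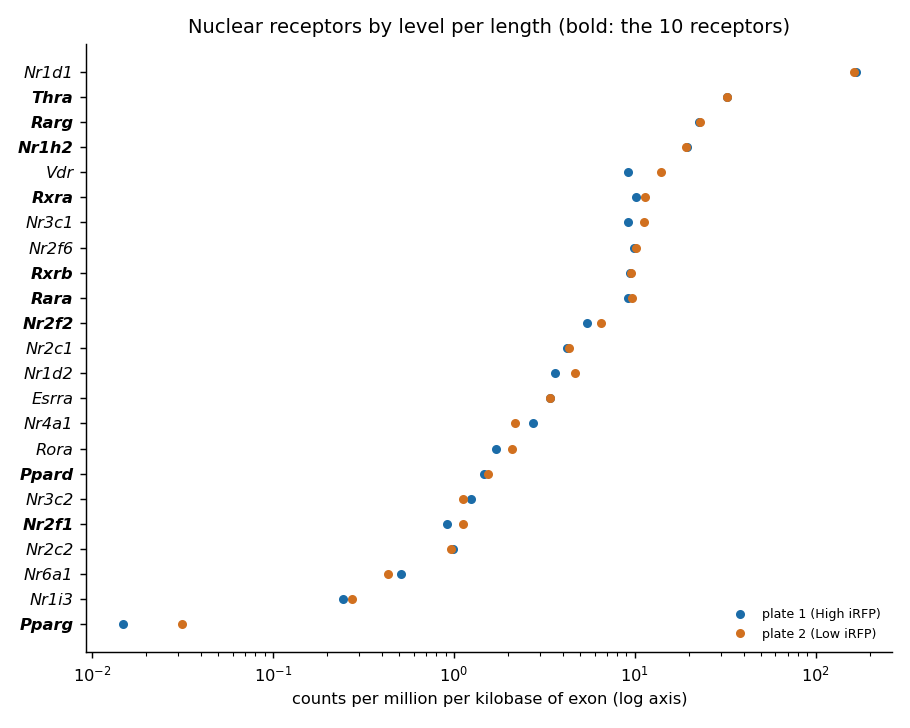
Level of nuclear receptors in CPM per kilobase of exon (log axis), circles for each plate; the 10 receptors are in bold, and the others shown have a read in at least 50% of cells of each plate. Thra at 32.3 is second to Nr1d1 at 165, and Pparg at 0.02 is the lowest shown.

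Of the 10 receptors, 7 had reads in nearly every cell, with 99.5% the lowest share on a plate, and these varied across cells with a coefficient of variation of 0.356 to 0.625. Thra (0.368 and 0.356) and Nr1h2 (0.362 and 0.358) varied least and Nr2f2 most (0.625 and 0.557). A single cell of plate 1 ranged from 12.4 to 608 CPM of Thra with a median of 146, and on plate 2 from 24.4 to 357 with a median of 142. Receptors moved little with each other: over 36 pairs without Pparg the median within-gate correlation was 0.037 on plate 1 and 0.023 on plate 2. The highest mean over plates was Thra with Rxra (0.174 and 0.197), with Rxrb and Nr1h2 next (0.179 and 0.140), and the lowest mean was Rarg with Rxra (-0.072 and -0.122). No gene reached a mean of 0.3 with Ppard, Rxra, Rxrb, Nr2f1, Nr2f2 or Nr1h2.

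The other receptors of the superfamily held 4 called genes among 21 tested, 3 higher and 1 lower toward bright Venus. The median trend of the 21 was 0.03 log2 per gate, and 15.4% of all genes tested were called. Nr1d1 was among the 4 by design of the sort, so its call says nothing about the other receptors. Nr1d1 and its paralog Nr1d2 rose, the latter by 0.64 ± 0.03 log2 per gate from 11.3 ± 1.28 to 39.3 ± 6.57 CPM (SD, n = 2; adjusted p = 7.65e-05, edgeR). Rora, an activator at the sites that REV-ERB proteins repress, rose by 0.27 ± 0.03 (adjusted p = 0.00208). Nr2c1, the orphan receptor TR2, fell by 0.12 on the log2 scale per gate (adjusted p = 0.0315). Of 15 coactivators 1 was called, Ppargc1b, a PGC-1 family coactivator, with 0.25 ± 0.06 at 2.95 and 3.72 CPM (adjusted p = 0.0277); it was named after its value was seen, being under the level set for named genes. The most abundant coactivators, Prmt1 and Med1, were at -0.02 and -0.01 (adjusted p 0.467 and 0.719), both with the opposite sign without the brightest gate. The median of the coactivators was -0.01. None of 10 corepressors was called by edgeR, against 15.4% of all genes tested, and their median trend was -0.03. Ncor1, the most abundant corepressor, was at -0.05 ± 0.02 (adjusted p = 0.0745; DESeq2 0.0389).

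Genes known as targets of these receptors moved in both directions, with median trends of -0.05 log2 per gate for the thyroid hormone genes, -0.04 for the retinoid genes, -0.005 for PPAR targets and 0.03 for LXR targets. Among 6 tested thyroid hormone genes, malic enzyme Me1 rose by 0.22 ± 0.02 log2 per gate, from 63.8 ± 8.71 to 106 ± 3.66 CPM (SD, n = 2; adjusted p = 0.00123, edgeR), and Klf9, a zinc finger repressor, fell by 0.09 on the log2 scale (adjusted p = 0.0239). Among 11 tested retinoid genes, Dhrs3 fell by 0.13 on the log2 scale (adjusted p = 0.0121), in the same direction as Rara. The retinoic acid hydroxylase Cyp26b1 was at 37.1 and 36.5 CPM, while Cyp26a1 and Rarb, which retinoic acid commonly induces, were at or below 0.02 CPM; these 3 were named after their values were seen.

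Among 18 tested PPAR targets 5 were called (27.8%, against 15.4% of all genes tested), 2 higher and 3 lower. The carnitine carrier Slc25a20 fell by 0.25, the lipid droplet protein Plin2 by 0.14 and the acyl-CoA dehydrogenase Acadm by 0.09 on the log2 scale per gate (adjusted p 0.00608, 0.0109 and 0.0119, edgeR). Lipoprotein lipase, Lpl, rose by 0.22 ± 0.05 and Plin4, another droplet protein, by 0.12 ± 0.03 (adjusted p 0.0193 and 0.0265). Lpl was low in the dimmest gate alone, at 107 and 121 CPM against 192 to 289 CPM in the other 6 sums, and its trend without that gate was -0.13. Slc25a20 was high in the dimmest gate alone, at 12.7 and 12.3 CPM against 6.62 to 8.11 CPM elsewhere. Among 13 tested LXR targets 6 were called (46.2%, against 15.4% of all genes tested), 4 higher and 2 lower. The lists were chosen with earlier results of these data known, so these shares are descriptions. Fatty acid synthase Fasn rose by 0.09 ± 0.02, the motor Myo5a by 0.08 ± 0.02 and the desaturase Scd2 by 0.06 ± 0.01 (adjusted p 0.0274, 0.0470 and 0.0364). The sterol exporter Abcg1, with reads in 6.79% and 6.33% of cells, rose by 0.98 ± 0.22 (adjusted p = 0.0241). Mylip, which degrades the LDL receptor, and Arl4c, a small GTPase, fell by 0.17 and 0.18 on the log2 scale (adjusted p 0.0282 and 0.0333). Acadm, Scd2 and Abcg1 were named after their values were seen, and Arl4c had a trend of 0.11 without the dimmest gate.

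These list calls rested on few sums, as did the calls over all genes. Of the 20 called genes outside the 10 receptors, 4 (Nr1d1, Nr1d2, Rora and Me1) were called with each of the 8 sums left out in turn. The rise of Nr1d1 was set by the sort on its reporter. Without the dimmest sum of plate 1, 5 of the 20 were called, and without its brightest sum 4, all 20 with the same direction. Without the plate block 11 of the 20 were called. Of the 2843 genes called over the whole table, 805, 484 and 1680 were kept in these settings, in that order. Across cells the receptors showed little relation to these lists within gates. The median correlation was -0.005 for Thra over 4 thyroid hormone genes, 0.028 for Ppard over 12 PPAR targets and 0.068 for Nr1h2 over 9 LXR targets. For Rara and Rarg over 8 retinoid genes it was -0.023 and -0.011, with Dhrs3 the highest for Rarg.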

How the data were processed

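Single-cell FLASH-seq libraries of 2 plates were read from the authors' deposited table of raw counts per gene and cell; the submitters' processing notes name STAR 2.7.11a, SAMtools, bedtools, HTSeq and GRCm39, with no roles, and strand use, annotation and molecular identifiers are not given in the sources used here. Per the file headers, Venus, iRFP and scatter are recorded intensity values of the sorter. Counts are reads after PCR and not independent molecules, so intervals cover counting error only. Symbols came from GENCODE M21 and RefSeq tables (GRCm38), matching 24902 of 33757 features; features without a symbol held 1.07% of counts. Cells with at least 1000 genes, 0.1 of the plate's median total and at most 25% mitochondrial counts were kept (383 and 379); median totals were 835930 and 857229 counts. No doublet caller was run on singly sorted cells, and cells are named by plate and well, so none is shared. Counts were summed per plate and gate, filtered with filterByExpr, scaled by TMM and fitted in edgeR 4.0.16 (R 4.3.3) with gate and plate, after the code was tested on simulated data. Standard errors are the absolute trend over the root of F. The linear contrast over 4 gates and the test of all gates used a threshold of 0.05. Alternatives used DESeq2 1.42.0, limma 3.58.1 with a pseudocount of 0.5, no TMM, no filter, no block, stricter cells, sums or gates left out, and thinning. Correlations are descriptions. The test of trend differences between plates, the ranks among all features and the slopes of Thra on Nr1d1 were added after seeing the data. The 10 receptors are always named; from each other list, called genes of mean log2 CPM of at least 2 were ranked by trend and the first 4 named, or the 2 most abundant where none was called, and genes of like pattern are the top 3 reaching 0.3. The receptors and lists were chosen with earlier results of these data known. Some genes that the naming rule picks are not reported here.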

Additional observations from a re-analysis of the deposited data

How the results depend on the processing

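The count of genes with a linear trend was 2843, 44.0% of them higher toward bright Venus, and 57.8% and 57.4% higher without TMM and with limma. It was 1683 with no replicate block, 1139 without the dimmest gate, 358 without the brightest gate and 494 to 2457 with 1 sum left out, lowest without the brightest sum of plate 1. The any-shape count of 1542 was 3653 with DESeq2, 2661 with no filter, 490 with no replicate block and 214 to 1173 with 1 sum left out. The block changed no call of a receptor; with no replicate block Rara was at -0.16 (adjusted p = 0.0087, edgeR). Rara lost its call at -0.15 without the brightest sum of plate 1 and at -0.14 without the brightest gate, and its range with 1 sum left out was -0.17 to -0.14. Rarg was called at -0.079 by DESeq2 and at -0.083 with no filter and, over sums left out, ranged from -0.12 (called) to -0.039. Nr1h2 was called at 0.075 without TMM, 0.060 with DESeq2 and 0.070 with limma. The direction turned for receptors with trends near 0. Thra was -0.0062 without the brightest gate and ranged from -0.0013 to 0.035 over sums left out. Rxrb was 0.0073 without TMM, 0.0094 with limma and 0.075 without the brightest gate, and ranged from -0.045 to 0.025 with 1 sum or 1 plate left out. Nr2f1 was 0.14 and Nr2f2 -0.026 without the brightest gate. In 136 of 153 comparisons of the 9 receptors with an alternative that has a p, direction and side of the threshold were kept; of 18 with 1 plate left out, which have no p, 17 kept the direction. Without the brightest gate Prmt1 turned to 0.034, Med1 to 0.0022, Ncor1 to 0.011 and Il11ra1 to 0.091. Med1 was 0.0058 without TMM, and Prmt1 ranged from -0.050 to 0.0023 over sums left out. Without the dimmest gate Lpl turned to -0.13, Arl4c to 0.11 and Krt14 to 0.040. Ppp1r14b was 0.00027 without replicate 2. Thinning lowered detection to 87.2% and 87.3% for Ppard, 52.7% and 52.8% for Nr2f1 and 98.4% for Rara on plate 2. Ranking within gates moved the mean correlation of Thra to 0.306 with Nr1d1, 0.338 with YFP and -0.042 with Venus fluorescence, and that of Rara to 0.080 with Nr1d1 and -0.055 with fluorescence; this ranking takes out differences between gates by construction. The cause of the other changes was not tested. Depth limits Pparg and Nr1h3, whose levels rest on few reads.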
